A study of Rattus norvegicus with 6 samples.

Results

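Cytosolic ribosomal proteins are the protein part of the ribosomes that translate messenger RNA in the cytoplasm. Their genes were followed here in kidney glomeruli of rats, as 73 gene rows of the 26319 in the deposited table. A row was taken when the authors' tables gave its Ensembl ID a human symbol of RPL or RPS with a number, at most 1 letter and 1 digit, or the symbol RPLP0, RPLP1, RPLP2 or RPSA. The 73 rows carried 56 symbols. Of these rows 44, with 34 symbols, belonged to the large subunit and 29, with 22 symbols, to the small subunit. The rule used symbols and no measured value of the rows, but it was set with earlier results of these data known. It could reach only the 12321 rows to which the authors' tables gave a symbol. A list of 77 symbols for the standard human set, written for this comparison, had 52 symbols among the rows (31 of 46 for the large subunit and 21 of 31 for the small one). The other 25, with RPL3, RPL5, RPL11, RPS19 and RPSA among them, were not analysed here. The 4 symbols outside the standard set were the paralogs RPL7L1, RPL10L, RPL22L1 and RPS27L.

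A ribosome consists of a small subunit, which holds the messenger RNA and reads its codons, and a large subunit, which joins the amino acids. Each ribosomal protein is needed in a fixed ratio to the ribosomal RNA, so the genes of both subunits are transcribed at high and coordinated rates in nearly all cells, glomerular podocytes, endothelium and mesangium included. Most of their messenger RNAs start with an uninterrupted stretch of C and T bases, the 5′ terminal oligopyrimidine motif, through which the kinase mTOR and the protein LARP1 control their translation.

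The samples were glomeruli, the filtering units of the kidney, of 6 Sprague Dawley rats. There were 2 wild-type animals (WT), 20.4 and 21.9 weeks old, that had been given vehicle. The other 4 carried an AT1R transgene (AT1R Tg), where AT1R is the type 1 receptor of the hormone angiotensin II. Of these, 2 had been given vehicle (20.4 and 17.4 weeks) and 2 the compound AC1903, which blocks the TRPC5 cation channel (23.0 and 20.4 weeks). Ages are given in the order of replicates 1 and 2. They differ within every group, so the libraries of a group came from different rats, and p-values measure the spread between these rats. The labels place the AC1903 rats in an advanced cohort and do not name the promoter or the cells that drive the transgene. In the text below, vehicle means AT1R Tg rats given vehicle, and AC1903 means AT1R Tg rats given AC1903.

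Expected counts per library totalled 25045081 and 36026772 for WT, 13464600 and 14230770 in vehicle and 12325515 and 12637582 in AC1903, so depth differed with genotype. All 7 podocyte markers searched, such as NPHS1, SYNPO and PODXL, were present in all 6 libraries, with a summed level between 7411 and 14104 CPM, the normalised read count scaled by effective library size. Glomerular endothelial markers (6 of 6 present) summed to between 4667 and 6859 CPM and mesangial markers (4 of 4 present) to between 447 and 649.5 CPM. Because whole glomeruli were sequenced, fewer cells of a type and less RNA per cell cannot be told apart.

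A stretch of C and T at the start of the messenger RNA is a feature that many of these genes share, so a few start windows are shown. RefSeq (rat assembly GRCr8) held a promoter for 40 of the 56 symbols. Each window below runs 5′ to 3′ over 30 bases, 10 before the annotated start and 20 from it. Capitals mark the longest run of C and T bases that begins with a C no more than 5 bases from the start on either side, where that run has at least 6 bases. The first 6 genes carry such a run and the last 3 do not. These last are the core gene RPL39, RPL7L1 (a paralog of RPL7) and RPS27L (a paralog of RPS27). Core genes such as RPLP2, RPS3 and RPS6, not shown, lacked such a run as well.
RPLP0, chr12:46718371-46718400, minus strand: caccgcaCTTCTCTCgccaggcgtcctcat
RPLP1, chr8:71290853-71290882, minus strand: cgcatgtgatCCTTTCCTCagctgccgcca
RPL19, chr10:83519054-83519083, plus strand: ccagcaagCTCTTTCCTTTCgctgctgcgt
RPL37A, chr9:81748081-81748110, plus strand: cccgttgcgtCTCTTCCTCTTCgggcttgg
RPS21, chr3:187724028-187724057, plus strand: agccaCTTCCTTTCTgtgttctccgtagac
RPS23, chr2:23814507-23814536, plus strand: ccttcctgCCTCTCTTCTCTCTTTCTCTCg
RPL39, chrX:121195877-121195906, minus strand: taatcgcgttcttccggcctgtcctttctc
RPL7L1, chr9:21695708-21695737, plus strand: cagatgcattgtgggaagcctttaactcgt
RPS27L, chr8:76443648-76443677, plus strand: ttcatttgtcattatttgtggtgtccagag

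Of the 40 matched ribosomal protein genes 25 (62.5%) had such a run on the strand of the gene, and it was 21 bases long in RPS23. Among all 21842 protein-coding promoters of the same length 2074 (9.50%) had one. On the opposite strand the run was found in 1 of the 40 and in 12.4% of all promoters. These are letters around annotated starts, which need not be the starts used in glomeruli. No match says only that no run had the position and length set above. Shorter or more distant stretches of C and T can still be in the window. RPL39 has a shorter one at the annotated start and another at the end of its window.

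The 73 rows lack 25 of the 77 standard symbols, so the shares and ratios below are of an incomplete set. Transcripts of the 73 rows took 1.46% and 1.75% of all expected counts in WT, 1.49% and 1.23% in vehicle and 1.28% and 1.17% in AC1903. Transcripts encoded by mitochondrial DNA took between 22.3% and 40.5% of a library, most in vehicle replicate 2, and were therefore also left out. Of the remaining counts the 73 rows took 1.88% and 2.44% in WT, 2.00% and 2.07% in vehicle and 1.94% and 1.71% in AC1903. On this base the vehicle libraries lay between the WT libraries, WT replicate 2 was highest and AC1903 replicate 2 lowest. Counts of the large subunit were 1.38 and 1.40 times those of the small subunit in WT, 1.36 and 1.43 times in vehicle and 1.40 and 1.44 times in AC1903. This ratio was slightly higher in both AC1903 libraries than in both WT libraries, and the vehicle libraries lay at 1.36 and 1.43, overlapping with both. WT replicate 2 and AC1903 replicate 1 were close, at 1.396 and 1.403. A single RPL8 row with uncertain counts (ENSRNOG00000032635) took 0.82% of the large subunit counts in the former and 1.53% in the latter. The order of WT and AC1903 in this ratio is therefore not certain.

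**Figure D1:**
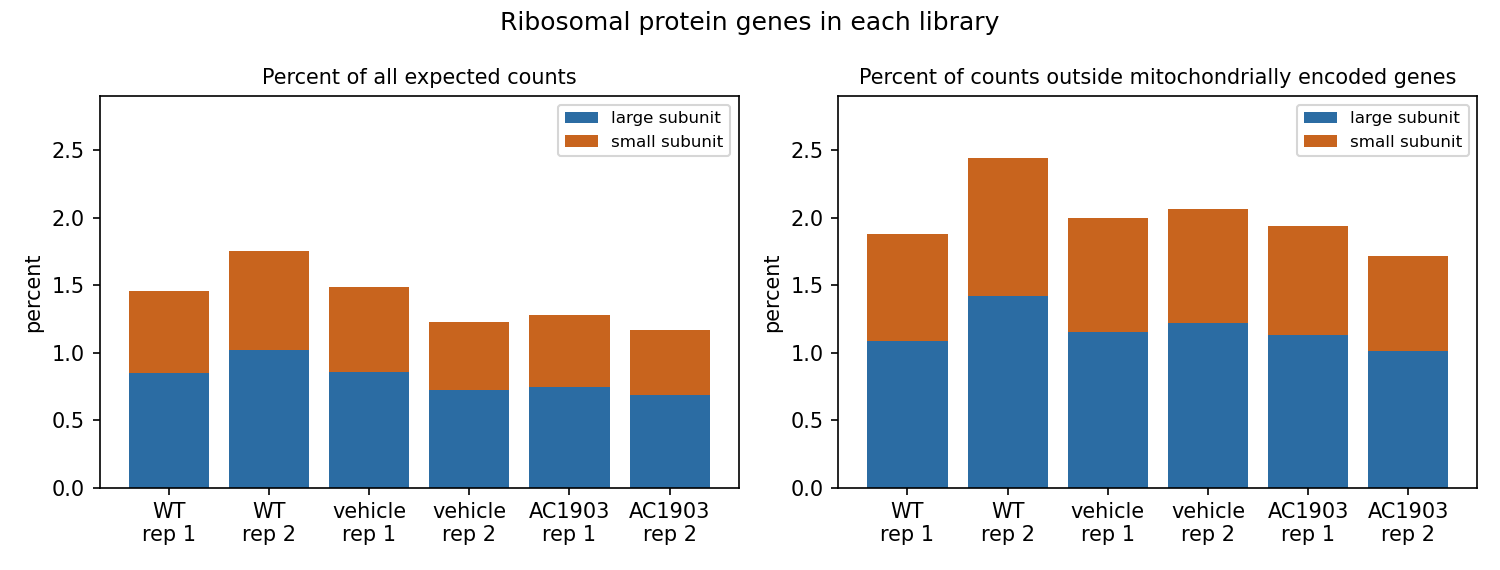
Percent of each library's expected counts (left) and of its counts outside mitochondrially encoded genes (right) in the 44 large subunit rows (blue) and the 29 small subunit rows (orange), 1 bar a library. WT replicate 2 has the tallest bar in both panels (1.75% and 2.44%) and AC1903 replicate 2 the lowest (1.17% and 1.71%), with both colours moving together.

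Levels of single genes were compared in CPM. Of the 73 rows 55 had a mean of at least 10 CPM, counting a pair of RPL8 rows with identical values once, and these 55 (34 large, 21 small) stand for the well-measured genes. In WT replicate 2 their median lay 0.33 above each gene's own mean on the log2 scale, and 42 of the 55 were highest there. AC1903 replicate 2 had the lowest value for 39 of the 55, with a median of -0.23. The other libraries had medians of -0.04 (WT replicate 1), 0.02 and 0.06 (vehicle replicates 1 and 2) and -0.08 (AC1903 replicate 1). Large and small subunit followed the same order of libraries, with 0.32 and 0.33 in WT replicate 2 and -0.22 and -0.27 in AC1903 replicate 2. The counts of 42 and 39 genes have no share of all genes beside them. They do not show whether other genes moved alike.

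The difference between the WT rats was as large as the differences between groups given below. WT replicate 2 exceeded WT replicate 1 in 54 of the 55 genes, by a median of 0.38 on the log2 scale, with RPL7L1 as the exception. Between the vehicle libraries the median difference was 0.04, with 32 genes higher and 23 lower in replicate 2. In AC1903 replicate 2 the level was lower than in replicate 1 for 44 of the 55, with a median difference of -0.16. These counts, too, cover the 55 genes only, without the share over all genes.

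**Figure D2:**
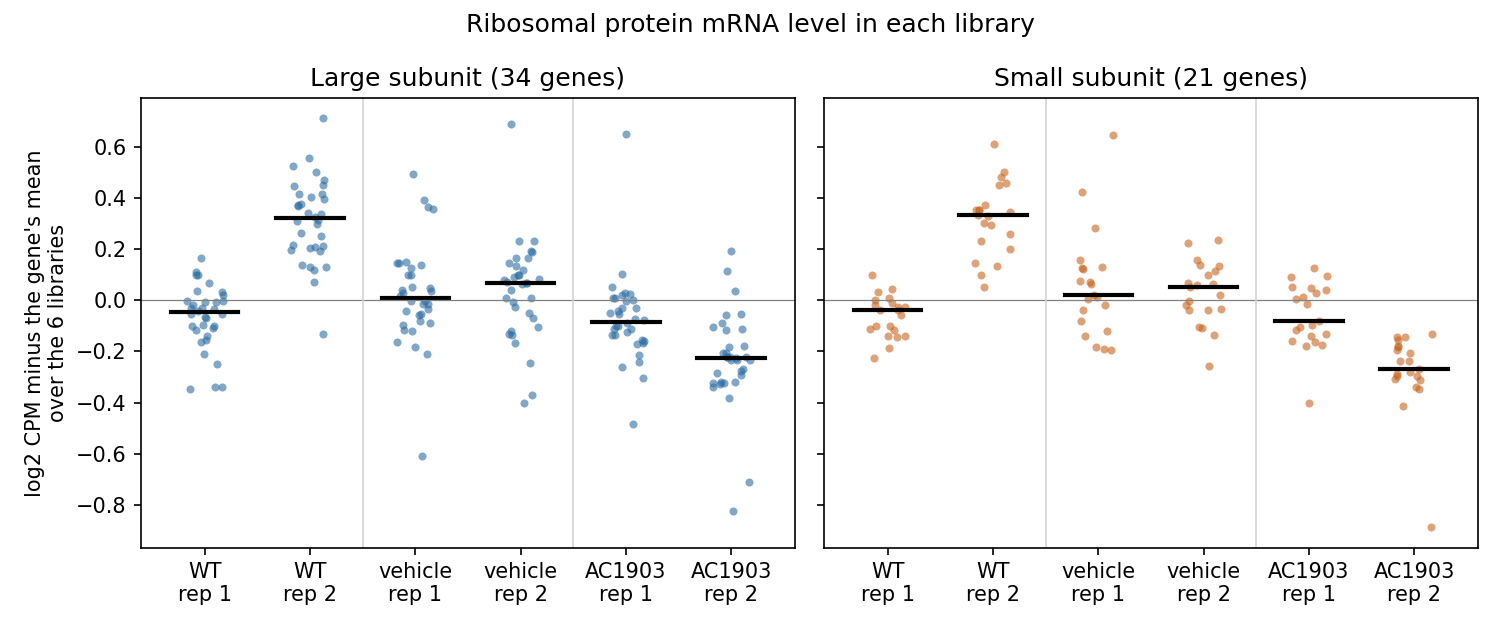
Level of each ribosomal protein gene of at least 10 CPM in each library, as log2 CPM minus that gene's mean over the 6 libraries, with 34 large subunit genes on the left, 21 small subunit genes on the right and a black bar at the median. The medians of WT replicate 2 (0.32 and 0.33) and AC1903 replicate 2 (-0.22 and -0.27) lie farthest from 0 in both panels.

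The first comparison, vehicle against WT, is between groups that differ in the transgene and also in the ages given above. The fitted log2 change was negative for 54 of the 73 rows, where 53.4% of all 13426 genes tested had a negative one. Its median was -0.15 for the large subunit and -0.10 for the small subunit, beside -0.03 for all genes tested. No ribosomal protein gene passed an adjusted p of 0.05 in edgeR's quasi-likelihood test, against 0.0745% of all genes. At an unadjusted p under 0.05 there was 1 lower row (3.35% of all genes) and no higher one (8.57% of all genes). DESeq2 gave an adjusted p to 69 of the 73 and called 0 of them (4.18% of all genes with one). Limma-voom called 0 of the 73 (0.0521% of all genes), and the authors' deposited table of this comparison had 0 of 73 past the same threshold (4.42% of its genes). Both vehicle libraries lay below both WT libraries in 6 of 73 rows (23.4% of all genes) and above them in 3 (20.6%), shares under the background. The sign of the medians rested on WT replicate 2: without it 17 of the 73 changes were negative and the medians were 0.061 (large) and 0.10 (small), while without WT replicate 1 they were -0.31 and -0.36. With age as a covariate 36 of the 73 were negative.

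RPL4, whose extension lines the tunnel through which the new protein leaves the ribosome, was one of 3 genes of at least 10 CPM with both vehicle libraries below both WT libraries. It had 605 and 782 CPM in WT, 522 and 581 in vehicle and 591 and 507 in AC1903. The vehicle change was -0.33 with SE 0.20 (edgeR adjusted p = 0.591), and AC1903 overlapped with vehicle. RPL24, which reaches across to the small subunit, had 264 and 311 CPM in WT, 251 and 235 in vehicle and 234 and 197 in AC1903. The groups of RPL24 followed each other downward without overlap, with changes against WT of -0.24 (SE 0.17) in vehicle and -0.42 (SE 0.17) in AC1903 (edgeR adjusted p = 0.657 and 0.444). The third was a second RPL26 row, described with the gene copies.

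AC1903 and vehicle, both transgenic, differ in the compound and also in age, at 23.0 and 20.4 weeks against 20.4 and 17.4. The parts of compound and age in this comparison were not tested. AC1903 against vehicle gave negative log2 changes for 67 of the 73 rows, beside 52.1% of all genes tested. The medians were -0.21 for the large and -0.23 for the small subunit, and -0.02 for all genes. Both AC1903 libraries lay below both vehicle libraries in 36 of 73 rows, where 18.4% of all genes did. They lay above them in 2 rows, where 19.9% of all genes did. No single gene passed the test: edgeR called 0 of 73 (0% of all genes), DESeq2 0 (0.421%), limma-voom 0 (0%) and the authors' deposited table had 0 past the threshold of the 71 rows it listed (0.378% of its genes). Unadjusted p-values under 0.05 were found for 2 lower rows (2.77% of all genes), RPL10L and RPS12, both under 10 CPM, and for 0 higher rows (5.35%). The changes were small beside their error, with a median SE of 0.20 for the large and 0.21 for the small subunit genes of at least 10 CPM. The direction held without either AC1903 library, at 70 negative of 73 without replicate 1 and 58 of 73 without replicate 2. The fit for a lone library assumes that it varies like the other groups, and with age as a covariate the medians were -0.36 and -0.40.

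AC1903 against WT, which shares its libraries with both comparisons above and is no separate evidence, gave negative changes for 69 of 73 rows (49.8% of all genes), with all 29 small subunit rows among them. The medians were -0.35 for the large and -0.37 for the small subunit. The median over all genes tested was 0.0019. Groups did not overlap, with AC1903 lower, in 37 of 73 rows (23.5% of all genes) and with AC1903 higher in 1 (24.2%). At an unadjusted p under 0.05 there were 8 lower rows, where 4.2% of all genes were lower, and 0 higher ones, where 6.92% were. After adjustment 0 of the 73 passed in edgeR (0.0372% of all genes), 0 in DESeq2 (1.27%) and 0 in limma-voom (0.0521%). Without WT replicate 2 the medians shrank to -0.12 and -0.15, and 55 of 73 changes were negative, while without WT replicate 1 the medians were -0.53 and -0.57.

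**Figure D3:**
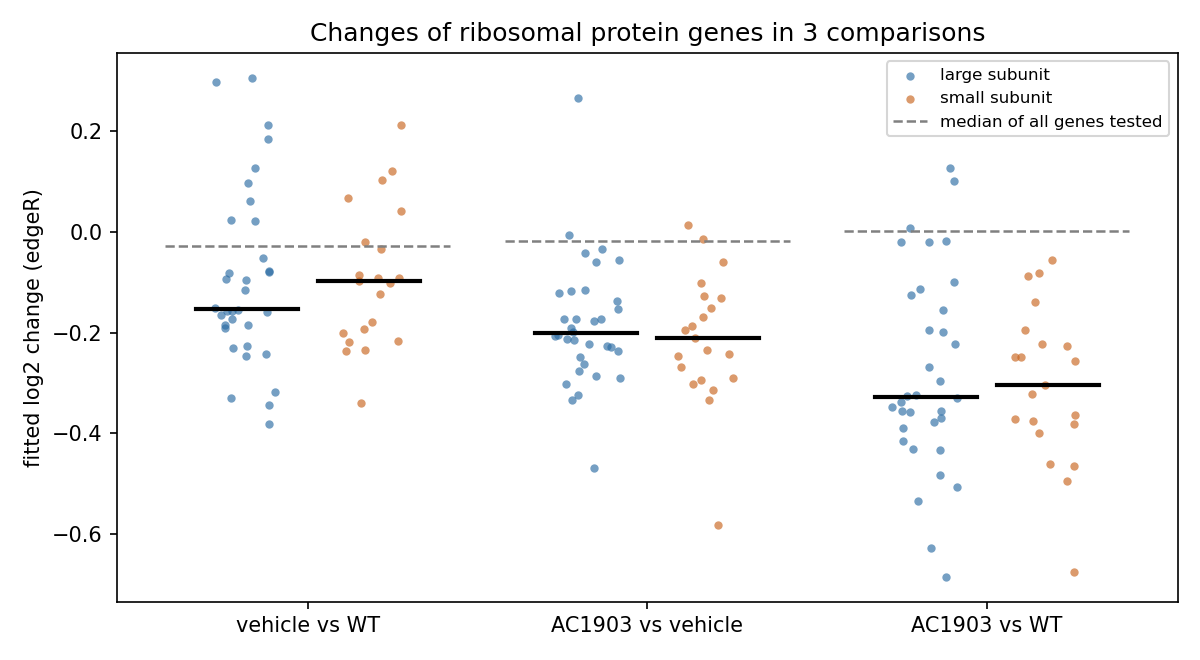
Fitted log2 change (edgeR) of 34 large subunit (blue) and 21 small subunit genes (orange) of at least 10 CPM in the 3 comparisons, with a black bar at each median and a dashed line at the median of all genes tested. In AC1903 against vehicle 53 of the 55 points lie below 0, with medians of -0.20 and -0.21, and the points of the subunits overlap throughout.

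The acidic proteins of the stalk, the flexible arm of the large subunit that recruits elongation factors, did not share one pattern. RPLP2 (ENSRNOG00000002116) had 145 and 213 CPM in WT, 152 and 169 in vehicle and 106 and 126 in AC1903. Both AC1903 libraries were below the other 4, with a change of -0.47 (SE 0.21) against vehicle and -0.63 (SE 0.21) against WT. Its edgeR adjusted p-values were 0.614 and 0.385, the latter the lowest of any member in that comparison. RPLP1 had 454 and 628 CPM in WT, 735 and 601 in vehicle and 515 and 552 in AC1903. Vehicle was highest for RPLP1 on average, overlapping with WT and not with AC1903 (log2 change of AC1903 against vehicle -0.32, SE 0.22, edgeR adjusted p = 0.683). RPLP0, the base of the stalk, had 419 and 461 CPM in WT, 379.5 and 515 in vehicle and 446 and 423 in AC1903. Its 3 groups overlapped, and all 3 fitted changes lay between -0.04 and 0.02.

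Among the other large subunit genes, RPL18 had 304 and 368 CPM in WT, 296 and 333 in vehicle and 264 and 235 in AC1903. Both AC1903 libraries of RPL18 were lowest, at -0.33 (SE 0.18) against vehicle and -0.43 (SE 0.18) against WT, with an unadjusted p of 0.042 and an edgeR adjusted p of 0.439 in the latter. RPL28 (ENSRNOG00000017127), a protein that bacterial ribosomes lack, had 180.2 and 250.0 CPM in WT, 169 and 198 in vehicle and 156 and 147 in AC1903. Again the AC1903 libraries were lowest without overlap, with a change against WT of -0.51 (SE 0.20, unadjusted p = 0.0314, edgeR adjusted p = 0.412). RPL8, which lies near the site of peptide bond formation, had 87.0 and 105 CPM in WT, 89.5 and 92.2 in vehicle and 77.4 and 75.7 in AC1903 in its pair of identical rows. RPL8 thus had both AC1903 libraries lowest as well, by -0.25 (SE 0.16) against vehicle (edgeR adjusted p = 0.671).

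RPL19, RPL4, RPLP1, RPL26 and RPL7 were the large subunit rows with the most counts, a ranking that also reflects transcript length. RPL19 stood at 586 and 748 CPM in WT, 593 and 638 in vehicle and 589.9 and 518 in AC1903. It followed its subunit most closely of the 55 genes: with the gene's mean and the library's subunit median removed, its log2 values had an SD of 0.027, beside a median SD of 0.11 over the 55. RPL7 had 420.5 and 626 CPM in WT, 480.2 and 529 in vehicle and 503 and 466 in AC1903, with vehicle and AC1903 both inside the WT range.

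In the small subunit, RPS6, the protein that S6 kinases phosphorylate downstream of mTOR, had 411 and 538 CPM in WT, 369 and 437 in vehicle and 448 and 350.2 in AC1903. Its 3 groups overlapped, with a change of -0.01 (SE 0.22) in AC1903 against vehicle. RPS23, which sits at the decoding centre, had 331 and 420.5 CPM in WT, 349.8 and 358 in vehicle and 296 and 274 in AC1903. The AC1903 libraries of RPS23 were lowest, at -0.31 (SE 0.18) against vehicle and -0.40 (SE 0.18) against WT (edgeR adjusted p = 0.664 and 0.454). RPS3, part of the messenger RNA entry channel, had 349.7 and 507 CPM in WT, 382 and 355 in vehicle and 324 and 297 in AC1903. Its AC1903 libraries lay below the other 4, with -0.46 (SE 0.21) against WT (edgeR adjusted p = 0.454).

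RPS15, whose tail reaches toward the decoding centre, had 346 and 477 CPM in WT, 380.2 and 339.7 in vehicle and 322 and 262 in AC1903. With -0.49 (SE 0.21) against WT it was the only small subunit gene of at least 10 CPM with an unadjusted p under 0.05 (0.0468, edgeR adjusted p = 0.445). RPS29, a zinc-binding protein, had 325 and 468 CPM in WT, 414 and 418 in vehicle and 337 and 341 in AC1903. AC1903 was below vehicle for RPS29, and WT spanned both. RPS26 and RPS7, chosen after their values were seen, had, with RPS27L, the smallest differences of the small subunit genes in AC1903 against WT, at -0.09 and -0.08 (SE 0.18 for both), and their groups overlapped in all 3 comparisons.

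RPS4X, an X-linked gene, had 332 and 474 CPM in WT, 356 and 383 in vehicle and 373 and 302 in AC1903, with all groups overlapping. For RPS18, a protein of the head of the subunit, the values were 383 and 458 CPM in WT, 418 and 485 in vehicle and 428 and 335 in AC1903. Its highest library was vehicle replicate 2, not WT replicate 2 as in 42 of the 55 genes.

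Paralogs stood next to their partners as follows. RPL22L1, which can replace RPL22 in the ribosome, had 69.2 and 90.8 CPM in WT, 90.4 and 53.0 in vehicle and 63.8 and 62.0 in AC1903. RPL22 had 36.2 and 48.3 CPM in WT, 44.8 and 43.4 in vehicle and 34.3 and 38.1 in AC1903. The vehicle rats differed in RPL22L1 and were nearly equal in RPL22, and AC1903 lay under vehicle only in RPL22 (-0.29, SE 0.19, edgeR adjusted p = 0.675). The difference between the paralogs was not tested.

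RPL7L1, a relative of RPL7 with a role in ribosome assembly, had 32.9 and 26.7 CPM in WT, 26.2 and 26.9 in vehicle and 30.3 and 33.5 in AC1903. It was the only gene of at least 10 CPM whose AC1903 libraries were both above both vehicle libraries, at 0.27 with SE 0.18 (edgeR adjusted p = 0.683), and its sign stayed positive under every scaling tried. RPS27L, which p53 can induce, had 18.1 and 20.8 CPM in WT, 26.8 and 18.2 in vehicle and 19.8 and 17.7 in AC1903. Vehicle replicate 1 alone was high. RPL10L, an autosomal copy of RPL10 known from testis, had 17 and 16 expected counts in WT, 15 and 19 in vehicle and 3 and 0 in AC1903. In CPM this was 0.61 and 0.433, 1.06 and 1.55, and 0.249 and 0. AC1903 libraries were at or under the 3 counts that a count of 0 allows, an unadjusted p of 0.0227 against vehicle did not survive adjustment (edgeR adjusted p = 0.590), and counts this small limit any statement about RPL10L.

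The 55 genes kept close to their subunit: after removal of the gene's mean and the library's subunit median, the SD of the log2 values was under 0.1 for 24 of them and above 0.2 for 12. Genes with a high SD are described next because of that value, so they are a description only. RPS21, one of the smallest proteins of its subunit, had 204 and 279 CPM in WT, 341 and 183 in vehicle and 165 and 185 in AC1903 (SD 0.34). RPL39, a very small protein in the exit tunnel, had 75.9 and 111 CPM in WT, 135 and 81.0 in vehicle and 86.0 and 98.4 in AC1903 (SD 0.32). RPL37A (ENSRNOG00000023385), a zinc-binding protein, had 156 and 218 CPM in WT, 259.7 and 199 in vehicle and 161 and 215 in AC1903 (SD 0.30). All 3, and RPLP1 and RPS27L, were highest in vehicle replicate 1, at 0.62 for RPS21, 0.49 for RPL39, 0.38 for RPL37A, 0.35 for RPLP1 and 0.40 for RPS27L above their subunit on the log2 scale.

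The groups of RPS21 overlapped between vehicle and AC1903 although its change there was the most negative of the small subunit genes of at least 10 CPM (-0.58, SE 0.29, edgeR adjusted p = 0.639). AC1903 replicate 2, lowest for most genes, was not low for RPL39 and RPL37A, which stood 0.26 and 0.34 above their subunit there. RPL36A, near the exit site for transfer RNA, had 24.7 and 40.7 CPM in WT, 27.1 and 23.1 in vehicle and 26.7 and 14.1 in AC1903. Its value in AC1903 replicate 2 was 0.60 below the subunit, and the AC1903 libraries overlapped with both other groups.

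**Figure D4:**
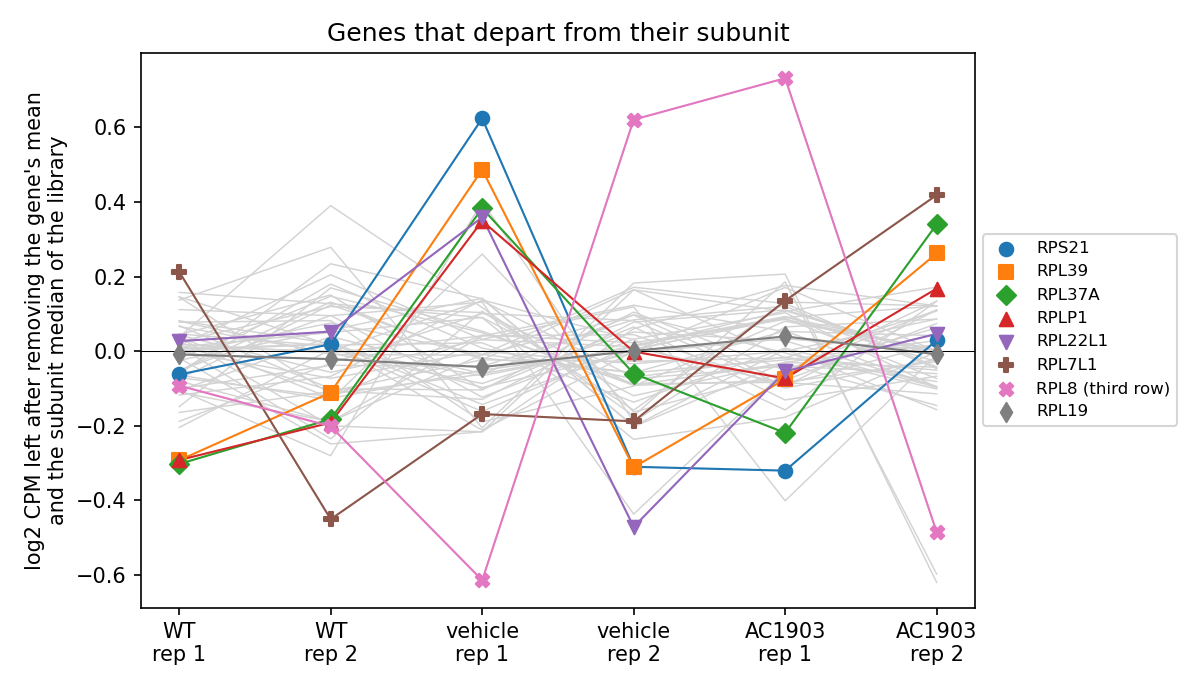
Log2 CPM left in each library after removal of the gene's mean and of the median of its subunit in that library, for the 55 genes of at least 10 CPM (grey), with 8 named genes in colour. RPS21, RPL39, RPL37A, RPLP1 and RPL22L1 peak in vehicle replicate 1, the separate RPL8 row swings between -0.61 and 0.73, and RPL19 stays near 0.

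Of the 56 symbols 41 stood on 1 Ensembl ID, 13 on 2 and 2 on 3, and ribosomal protein genes are known for many processed copies elsewhere in the genome. Reads of such copies cannot be assigned with certainty, and 17 of the 73 rows had a mean under 10 CPM. For 13 of the 15 symbols with several IDs, the most abundant row held at least 89.7% of the symbol's counts. The exceptions were RPL6, at 76.9%, and RPL8. Beside its identical pair, RPL8 had a separate row (ENSRNOG00000032635) at 67.4 and 80.6 CPM in WT, 48.7 and 119.6 in vehicle and 116 and 45.4 in AC1903. It held 35.2% to 60.0% of the RPL8 counts depending on the library, with the identical pair counted once. Counting both rows of the pair would lower these shares. The percentages of each library's counts given above, over all 73 rows, included both. Its SD after removal of the gene's mean and the library's subunit median, 0.56, was the largest of the 55 genes of at least 10 CPM, and the row is uncertain because reads can be divided among the RPL8 copies. The second RPL26 row (ENSRNOG00000039783) had 18.1 and 22.8 CPM in WT, 17.9 and 14.9 in vehicle and 14.0 and 14.3 in AC1903, in non-overlapping steps (AC1903 against WT -0.53, SE 0.21, edgeR adjusted p = 0.422). The first RPL26 row, with 500.2 and 662, 548 and 494, and 474 and 426 CPM, ran the same way from vehicle to AC1903 and overlapped between WT and vehicle.

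Further low rows were among those with the smallest p-values, and the files do not say which copy each stands for. A second RPL28 row (ENSRNOG00000037673) had 10.5 and 13.5 CPM in WT, 6.72 and 8.05 in vehicle and 8.90 and 7.27 in AC1903. Its vehicle change of -0.70 (SE 0.27, unadjusted p = 0.0326, edgeR adjusted p = 0.346) was the 1 unadjusted result against WT, and the same RPL28 row had the lowest adjusted p of the members in the authors' deposited table, 0.324. The RPS12 row (ENSRNOG00000048564) had 2.58 and 4.69 CPM in WT, 3.68 and 2.93 in vehicle and 1.66 and 0.959 in AC1903, lowest in AC1903 at -1.33 (SE 0.55) against vehicle (edgeR adjusted p = 0.606). A second RPL13 row (ENSRNOG00000032595), at 4.02 and 11.0 CPM in WT, 6.44 and 4.88 in vehicle and 2.83 and 3.28 in AC1903, was also lowest in AC1903. The abundant RPL13 row had a change against WT of -0.10 (SE 0.18) there, and the low row one of -1.30 (SE 0.50, edgeR adjusted p = 0.409).

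The RPS20 row (ENSRNOG00000030596) had 111 and 232 expected counts in WT, 57.7 and 0.17 in vehicle and 38.2 and 46.7 in AC1903, so vehicle replicate 2 alone was near 0. With vehicle replicate 1 left out, the RPS20 row was the 1 member that edgeR called in vehicle against WT (adjusted p = 0.0249), and that call rests on 1 library of 0.17 counts. The RPS20, RPS12 and RPL23A symbols had only such low rows, and so had RPL15 and RPL37.

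Genes with and without a C and T run of the set length near the start did not differ in direction. Over 24 genes with the run and 14 without it, each by its most abundant row of at least 10 CPM, the median change of AC1903 against vehicle was -0.20 in both. Against WT the AC1903 medians were -0.30 with the run and -0.36 without it. No test was made of this difference.

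Other genes of translation were read from lists in the same fit, and edgeR called 0 of their rows in any of the 3 comparisons. Elongation factors and ribosome-associated proteins (15 rows for 12 of 15 symbols) had median changes of -0.09 in vehicle against WT, -0.08 in AC1903 against vehicle and -0.17 in AC1903 against WT, where all 15 were negative. At an unadjusted p under 0.05 there were 2, 0 and 2 lower rows of this list in the same order, and 0 higher ones. Of all genes 3.35%, 2.77% and 4.2% were lower at that p, and 8.57%, 5.35% and 6.92% higher. FAU (ENSRNOG00000020982), which encodes the ribosomal protein S30 fused to a ubiquitin-like protein, had 274 and 379.6 CPM in WT, 302 and 321 in vehicle and 279 and 264 in AC1903. Like most ribosomal protein genes, FAU was highest in WT replicate 2 and lowest in AC1903 replicate 2. EEF2, the translocation factor, had 948 and 1019, 912 and 1019, and 943 and 891 CPM in the same order of groups. Both AC1903 libraries of EEF2 lay just under both WT libraries, and vehicle overlapped with both. Of this list DESeq2 called 1 row, EEF1A1 (ENSRNOG00000029996), lower in AC1903 than in WT (DESeq2 adjusted p = 0.0483), where it called 1.27% of all genes. The 49.9 CPM of this row in WT replicate 2 stood beside 6.82 to 11.6 CPM in the other 5 libraries. Which EEF1A1 copy the row stands for is not known.

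Initiation factors (30 rows for 27 of 30 symbols) had medians of -0.06, -0.12 and -0.11 in the same order of comparisons. At an unadjusted p under 0.05, 1, 1 and 5 rows were lower (3.35%, 2.77% and 4.2% of all genes). There were 1, 0 and 0 higher rows (8.57%, 5.35% and 6.92% of all genes). EIF5B, which joins the subunits, had 478 and 499 CPM in WT, 410.3 and 385 in vehicle and 335 and 302 in AC1903 (ENSRNOG00000023356). Its groups stepped down without overlap, by -0.62 in AC1903 against WT (edgeR adjusted p = 0.338). DESeq2 called both EIF5B rows there (DESeq2 adjusted p = 0.0135 and 0.0262), beside 1.27% of all genes. Genes of ribosome assembly and ribosomal RNA synthesis (37 rows for 35 of 38 symbols) had medians of -0.11, -0.05 and -0.15, with 0, 0 and 2 rows lower and 0 higher at that p. S6 kinase and mTOR genes (20 of 20 symbols) had medians of -0.06, -0.0016 and -0.03, with 1, 0 and 1 lower and 0, 2 and 1 higher. DESeq2 called 0 rows of either list. MTOR itself had 101 and 87.0 CPM in WT, 87.3 and 90.3 in vehicle and 91.7 and 96.7 in AC1903, LARP1 had 38.4 and 35.8, 49.4 and 46.0, and 39.3 and 48.8, and neither was called.

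The proteins of the mitochondrial ribosome, which translates the transcripts of mitochondrial DNA, had other values in vehicle against WT than their cytosolic counterparts. Of 76 mitochondrial ribosomal protein genes 64 had a positive change there (median 0.22), while 54 of 73 cytosolic ones had a negative change (median -0.12). In AC1903 against vehicle 66 of the 76 were negative (median -0.23), close to the cytosolic median of -0.21. Against WT the AC1903 median was -0.01 for the mitochondrial and -0.36 for the cytosolic genes. No list was tested against the other. EdgeR called 0 of the 76, and DESeq2 called MRPS34, higher in vehicle than in WT (DESeq2 adjusted p = 0.0066), where it called 4.18% of all genes. At an unadjusted edgeR p under 0.05, 7 were higher in vehicle against WT (8.57% of all genes) and 5 lower in AC1903 against vehicle (2.77%). In AC1903 against WT 2 were higher (6.92%) and 1 lower (4.2%). Nuclear-encoded respiratory chain subunits (90 rows) had medians of 0.45, -0.32 and 0.14 in the same order.

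Markers of other cells had their highest or lowest sums in some of the libraries that stood out above, but not in all of them. Proximal tubule markers (7 of 8 paired with a row, none at 0) summed to 1280.0 and 877 CPM in WT, 1848 and 3609 in vehicle and 1929 and 1979 in AC1903. They were lowest in WT replicate 2, where ribosomal protein genes were highest. Their highest sum was in vehicle replicate 2, where the ribosomal protein median was also above 0, at 0.06. Macrophage and monocyte markers (9 of 9, none at 0) summed to 247 and 418 CPM in WT, 228 and 297 in vehicle and 353 and 859 in AC1903. They were highest in AC1903 replicate 2, where ribosomal protein genes were lowest, and next highest in WT replicate 2, where those genes were highest. Erythroid markers (7 rows of HBA1, HBA2 and HBB) ranged from 14.5 to 284 CPM. They were lowest in AC1903 replicate 2, with 1 HBA1 row and 1 HBB row at 0, and highest in AC1903 replicate 1. Markers of the loop of Henle, distal tubule and collecting duct (5 of 5, none at 0) summed to 394 and 368 CPM in WT, 398 and 380.1 in vehicle and 611 and 545 in AC1903, highest in the group where ribosomal protein genes were lowest. Parietal epithelial markers (3 rows) ranged from 48.7 to 116 CPM and lymphocyte markers (4 rows) from 10.6 to 26.6 CPM. The part of tubular, myeloid and blood cells, of age and of depth in the ribosomal protein values was not tested.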

How the data were processed

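Messenger RNA of isolated glomeruli was sequenced from 6 rats with a strand-keeping library kit, per the labels' protocols. The authors deposited expected counts per Ensembl gene. The submitters' processing notes name STAR 2.5.2b as well as RSEM 1.3.0 with the build Rnor_5.0, and name no annotation release. The authors' deposited tables of 2 comparisons (vehicle against WT, AC1903 against vehicle) hold log2 fold changes with adjusted p-values, per the file headers, which do not name the tool. RSEM divides reads between similar sequences, which makes near-identical copies uncertain.

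Expected counts were rounded, filtered with filterByExpr by group (13426 genes kept, with all 73 members) and scaled by TMM. Comparisons used the quasi-likelihood test of edgeR 4.0.16 in R 4.3.3 (two-sided), fitted to the 6 libraries together, which left 3 residual degrees of freedom. P-values were adjusted by Benjamini-Hochberg over all genes tested, with 0.05 as threshold, and the common coefficient of biological variation was 23.0%. DESeq2 1.42.0, limma-voom (limma 3.58.1), other scalings, filters, a replicate block, age and leaving out each library were alternatives. The procedure was also run on simulated data. The single-gene changes set there were larger than the subunit medians given here, so that run does not bear on changes of this size. Totals of 12325515 to 36026772 expected counts per library set the precision. A count of 0 allows up to 3 counts (counting error only). Within every group, replicates 1 and 2 were farther apart than counting noise allows.

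The members and lists were chosen with earlier results of these data known. Named genes were, in each comparison, the 4 per subunit with the smallest p and a mean of at least 1 CPM, then the stalk genes, RPS6, paralogs with their partners, the 5 most and 5 least abundant rows per subunit, and the several IDs of a symbol together. Some of them are not reported here. RPL6, RPL24, RPL36A, RPL37A, RPS7, RPS26 and the separate RPL8 row were added after their values were seen. Symbols came from the authors' tables, and start sequences from RefSeq (GRCr8), whose coordinates were not mixed with those of the counts.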

Additional observations from a re-analysis of the deposited data

How the results depend on the processing

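The count of ribosomal protein genes past the threshold was 0 in each comparison under DESeq2, limma-voom, 4 other scalings, 2 other filters, a fit of only the groups compared, age as a covariate, 1 Ensembl ID per symbol, and the 55 genes of at least 10 CPM, a set chosen after seeing the data. Leaving out 1 library at a time gave 0 to 1 in vehicle against WT (RPS20, edgeR adjusted p = 0.0249, without vehicle replicate 1) and 0 in both other comparisons. Medians then ranged, for large and small subunit, from -0.31 to 0.061 and from -0.36 to 0.10 in vehicle against WT, from -0.31 to -0.16 and from -0.35 to -0.19 in AC1903 against vehicle, and from -0.53 to -0.12 and from -0.57 to -0.15 in AC1903 against WT. The positive medians of 0.061 and 0.10 came without WT replicate 2. With age as a covariate the small subunit median in vehicle against WT turned to 0.015, and those of AC1903 against vehicle were -0.36 and -0.40. The cause was not tested. Under the 4 other scalings the member medians were negative in all 3 comparisons. Total counts without a further factor moved the median of all genes by -0.16 in vehicle against WT and by -0.12 in AC1903 against WT, and the medians of the 73 members there were -0.27 and -0.47. Outside mitochondrially encoded genes the percentages of counts were 1.88 and 2.44 in WT, 2.00 and 2.07 in vehicle and 1.94 and 1.71 in AC1903. Libraries with the same replicate number did not deviate together (r of -0.02, 0.0046 and -0.04 for the 3 pairs of groups), so the numbers give no pairing. With the replicate block 0 members were called and the medians were -0.14 and -0.10, -0.21 and -0.23, and -0.35 and -0.36 in the same order. For the 43 named rows, none of which was past the threshold, the sign of the change differed in 56 of 721 alternative values in vehicle against WT, 29 of 719 in AC1903 against vehicle and 20 of 720 in AC1903 against WT. Depth limits the 17 rows under 10 CPM, such as RPL10L with 0 to 19 counts a library.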
